A study of Mus musculus with 8 samples.

Results

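The genes described here are 32 genes of cholesterol synthesis, regulation, transport, efflux, removal and storage, taken by symbol from the deposited table of brainstem (BS) expression. They were all found among the 24081 genes of the table, and all 32 were among the 15123 genes that passed a mean of 10 normalized counts over the 8 libraries. Of these, 18 encode enzymes of cholesterol synthesis and 14 encode proteins that regulate, move, export, store or remove cholesterol. A normalized count is the number of reads assigned to a gene divided by the size factor of its library, so it can be compared between libraries but not between genes of different length.

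RNA was sequenced from the BS of 4 control mice and 4 KI mice on the C57BL/6 strain, untreated and collected at postnatal day 19 by the labels, or day 18 or 19 by the study's methods. The control genotype was Nestin tv-a, p53 fl/fl and Olig2-Tv-a/Cre. The KI genotype was the same with hPDGFRA fl/+ added, a human PDGFRA cDNA in the Rosa26 locus behind a CAG promoter and a floxed stop cassette, so that Cre turned it on in Olig2 progenitors and their progeny. Both groups carried the p53 deletion in those progenitors, so that the comparison was of PDGFRA overexpression on a p53-deleted background and not of p53 loss. The tissue was whole BS, in which fewer cells of a type and less RNA per cell cannot be told apart.

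Cholesterol in the brain is made in place, because lipoproteins of the blood do not cross the blood-brain barrier, and oligodendrocytes (OL) make it in large amounts while they lay down myelin. When sterols are scarce in the endoplasmic reticulum, SCAP escorts the transcription factor SREBP2 to the Golgi, where it is cut free to turn on the enzymes of the pathway, and the INSIG proteins hold this complex back when sterols are plentiful. When oxysterols are plentiful, the LXR receptors turn on genes of cholesterol export such as Abca1 and Abcg1.

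The libraries held 24816146 to 27716846 reads in the control group and 21492789 to 24458589 in the KI group, so every KI library was shallower than every control library. KI replicate 4 stood apart from the other KI libraries. Whether its genotype and recombination were those of its label could not be told from the table. Every comparison of 4 with 4 libraries therefore rests on that label. In the submitters' own sample numbers KI replicates 1 to 3 were consecutive. KI replicate 4 was numbered apart from them, directly after the numbers of control replicates 2 to 4. What those numbers stand for was not given. Normalized counts of Pdgfra were 11437, 9706 and 8939 in KI replicates 1 to 3 but 3269 in KI replicate 4, just above the control range of 2565 to 3087, and reads of the human cDNA that align to the mouse gene cannot be told apart from mouse Pdgfra. Transcripts of the Rosa26 locus (Gt(ROSA)26Sor) stood at 603, 605 and 573 in KI replicates 1 to 3, at 328 in KI replicate 4 and at 82.9 to 93.9 in the controls. Xist, which is transcribed from the inactive X chromosome, was high in 3 libraries, with 8943 normalized counts in KI replicate 4, 4155 in control replicate 2 and 7792 in control replicate 3, and did not exceed 43.9 in the other 5. The choroid plexus marker Ttr was at 44.9 in control replicate 4 and at 237 in KI replicate 3, against at least 14985 in the other 6. Markers of the brainstem were detected, with summed levels of 8354 to 15550 in controls and 6026 to 15376 in KI mice for 7 genes including Slc6a5 and Hoxb3, while of 4 forebrain genes only Neurod6 reached the minimum mean. Counts of genes that passed are therefore given for all 8 libraries and also without KI replicate 4.

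RefSeq windows around the gene start (build GRCm38.p6) were at hand for 26 of the 32 genes, 15 of them synthesis enzymes, and the 150 bases before the start are printed for the 3 enzymes that passed the test, for Hmgcs1, and for 2 regulators that moved in opposite directions. Capitals mark the CCAAT box (CCAAT, or ATTGG on the other strand) and, in Hmgcs1, the sterol regulatory element TCACNCCAC, to which SREBPs bind. Where a gene had several windows the first listed was printed.
Hmgcs1: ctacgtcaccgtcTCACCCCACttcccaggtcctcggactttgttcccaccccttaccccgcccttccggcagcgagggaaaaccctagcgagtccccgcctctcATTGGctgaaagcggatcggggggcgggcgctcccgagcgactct
Mvd: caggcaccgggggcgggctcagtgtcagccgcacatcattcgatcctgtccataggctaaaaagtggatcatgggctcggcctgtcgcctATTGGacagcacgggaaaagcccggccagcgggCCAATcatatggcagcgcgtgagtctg
Ebp: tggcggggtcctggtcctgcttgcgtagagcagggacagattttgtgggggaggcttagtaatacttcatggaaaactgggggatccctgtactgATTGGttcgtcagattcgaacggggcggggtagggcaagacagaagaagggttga
Dhcr7: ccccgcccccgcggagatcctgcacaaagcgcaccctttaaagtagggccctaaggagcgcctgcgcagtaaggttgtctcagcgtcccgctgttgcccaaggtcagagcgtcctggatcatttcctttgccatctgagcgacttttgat
Srebf2: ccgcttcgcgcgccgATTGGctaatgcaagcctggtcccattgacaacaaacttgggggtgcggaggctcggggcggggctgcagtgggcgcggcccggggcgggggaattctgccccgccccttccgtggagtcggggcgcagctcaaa
Insig2: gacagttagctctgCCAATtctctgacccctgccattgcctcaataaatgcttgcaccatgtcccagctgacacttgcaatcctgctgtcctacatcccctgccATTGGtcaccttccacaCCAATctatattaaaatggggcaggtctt
The stretches lie at chr13:119690201-119690350 (plus strand), chr8:122443423-122443572 (minus strand), chrX:8193513-8193662 (minus strand), chr7:143823017-143823166 (plus strand), chr15:82147119-82147268 (plus strand) and chr1:121332590-121332739 (minus strand).

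Over the whole windows of 300 bases and on both strands, the element TCACNCCAC was present in 1 of the 26 genes, Hmgcs1, and in 1.44% of the 27025 genes with windows. In Hmgcs1 its first base was at position -137 from the RefSeq start. Another annotation, GENCODE, starts Hmgcs1 farther downstream, at chr13:119690379. The CCAAT box was present in 21 of the 26 genes (80.8%), and in 14 of the 15 synthesis enzymes, against 41.1% of all genes. The GC box, GGGCGG, was found in 23 of the 26 (88.5%) and again in 14 of the 15 enzymes, against 38.2% of all genes. All 26 passed the minimum mean of counts, which the 27025 genes did not have to. The share among genes expressed in BS is not given, so these contrasts cannot be called particular to cholesterol genes. The strict form of the LXR binding site, a direct repeat of AGGTCA with 4 bases between its copies, was present in 0 of the 26 and in 4 genes of all. In Dhcr7 the CCAAT box was in another listed window and not in the printed one. In Insig2 this was so for the GC box. The printed Insig2 stretch lies before the GENCODE start of the gene, at chr1:121332589 on the minus strand. The deposited coordinates start Insig2 farther downstream, at chr1:121328024. A match describes the letters only, and the absence of a match says nothing about whether the factor binds.

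Fold changes of KI against control BS were negative on the log2 scale for 18 of 18 synthesis enzymes, with a median of -0.56 and a range from -0.96 for Hmgcs1 to -0.07 for Idi1, the 1 enzyme whose sign turned with edgeR (0.04), DESeq2 (0.04), Xist as covariate (0.23) or the Ttr-low libraries left out (0.07). By comparison, the median over all 15123 genes was -0.004, and 50.4% of them were negative. Of the 18 enzymes 3 fell past the threshold of an adjusted p of 0.05 (limma on log2(normalized count + 1), Benjamini-Hochberg over all genes tested), namely Mvd, Ebp and Dhcr7, and 0 rose. Among all genes tested 12.4% fell and 12.0% rose. At an unadjusted p under 0.05, 11 of the 18 were lower and 0 higher by limma, and edgeR and DESeq2 also called 0 higher. Among all 15123 genes tested, 5905 passed that unadjusted level by limma, in either direction. For 0 of the 18 did all KI libraries lie below all control libraries, against 12.8% of all genes.

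KI replicate 4 did not share the low levels of the other KI libraries. It was the highest KI library for 18 of 18 enzymes, lay within the control range for 15 of them and above every control for the other 3, Idi1, Msmo1 and Sc5d. KI replicates 1 to 3 together lay below every control library for 13 of the 18. The share of all genes that separate in this way is not given, and KI replicate 4 was set apart after its values were seen. The count of 13 therefore describes these libraries and is not a test of the enzymes. As a percent of the control mean, the median over the 18 enzymes was 75.2, 65.6 and 43.7 in KI replicates 1 to 3 and 97.0 in KI replicate 4. In the control libraries it was 109, 98.03, 110.4 and 78.9. KI replicate 3 was the lowest of the 8 libraries and control replicate 4 the lowest control for all 18 enzymes. They were also the libraries low in Ttr, and each was lowest of its group in the 7 brainstem markers. The mean log2 level of those markers was -0.46 in control replicate 4, against -0.03 to 0.52 in the other controls. In KI replicate 3 it was -0.59, against 0.29 to 0.50 in the other KI libraries. Whether the tissue taken differed between libraries was not tested. Without KI replicate 4, 13 of the 18 enzymes fell, against 18.2% of all genes tested, with a median of -0.74.

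**Figure D1:**
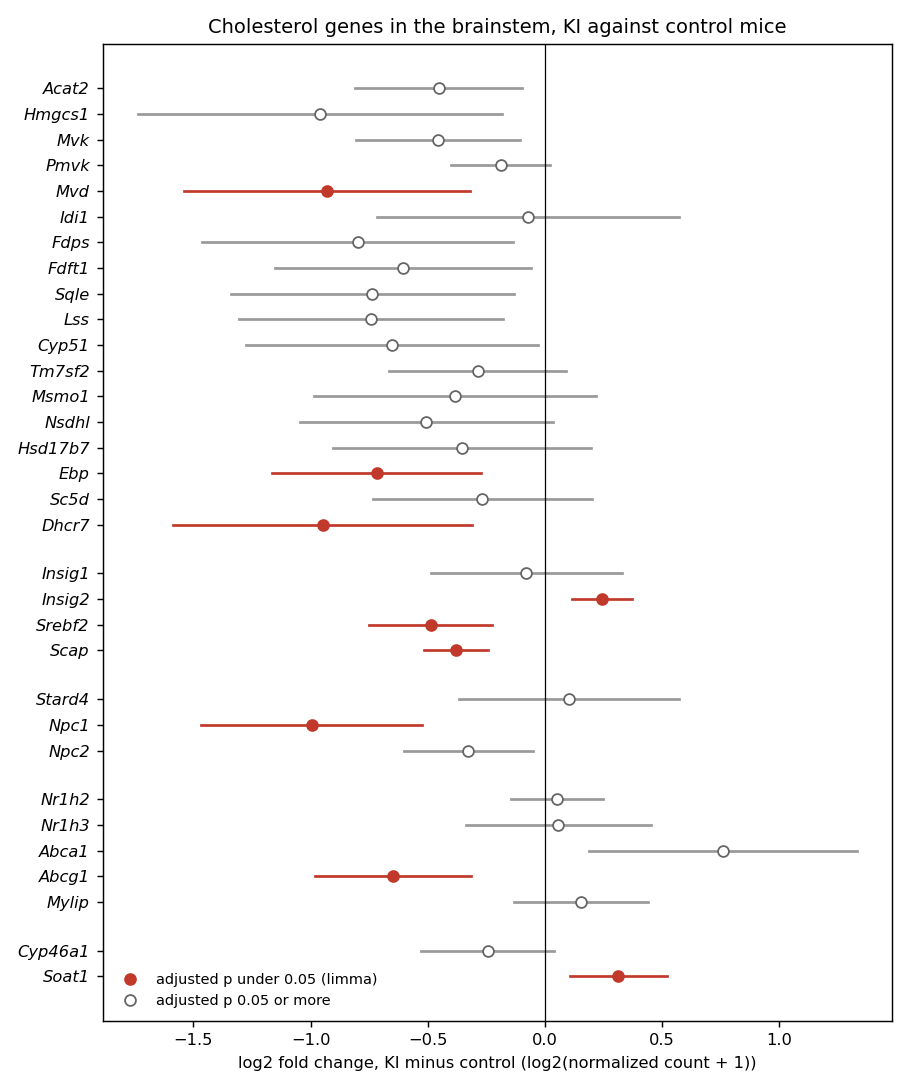
Log2 fold change of KI minus control on the log2(normalized count + 1) scale for the 32 genes, with 95% confidence intervals from limma, grouped from top to bottom into synthesis, regulation, transport, LXR and efflux, and removal and storage. Filled red points passed an adjusted p of 0.05. All 18 synthesis points lie left of 0 (Idi1 right of it with edgeR and DESeq2), with 3 of them filled, and the 14 other genes fall on both sides.

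The early steps carry acetyl-CoA to the isoprenoid units. Hmgcs1, which makes HMG-CoA and has the sterol regulatory element printed above, had 18581 to 30345 normalized counts in the controls, 11777, 10384 and 7813 in KI replicates 1 to 3, and 27878 in KI replicate 4. Its log2 fold change of -0.96 (SE 0.34, n = 4 and 4) was the largest in size of the 18 on this scale, though Dhcr7 and Mvd exceeded it with edgeR (-0.85 and -0.83 against -0.80) and DESeq2. Hmgcs1 did not pass (limma adjusted p = 0.0702). KI replicate 4 lay inside its control range, as it also did for Mvd, Ebp and Dhcr7, which passed. Hmgcs1 is given by library because it had the largest change on this scale, a choice made after its values were seen. Without KI replicate 4 it fell by 1.33 (limma adjusted p = 0.00107). Antisense gene Gm48342 shares 12.1% of the exon bases of Hmgcs1. By the study's methods counting ignored strand and left out ambiguous reads. Reads there were thus counted for neither gene, if the study's annotation held both. The same holds for the overlaps of other genes given below.

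Mvd, whose product decarboxylates mevalonate diphosphate to the first isoprenoid unit, had 1521, 1479.8, 1522 and 1149 normalized counts in the controls and 785, 611, 469 and 1321 in the KI libraries. KI replicates 1 to 3 were below every control, and KI replicate 4 was above control replicate 4. The mean was 1418 ± 180.2 (SD, n = 4) in controls and 797 ± 373 (SD, n = 4) in KI mice, and Mvd fell by 0.93 on the log2 scale (SE 0.27, limma adjusted p = 0.0364). Mvk, the kinase that acts first on mevalonate, had 1293, 1131, 1245 and 1085 in the controls and 1026, 761, 657 and 1089 in the KI libraries. Its difference of -0.45 (SE 0.16) did not pass (limma adjusted p = 0.0602), with KI replicate 4 slightly above control replicate 4.

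Among the other early enzymes, Acat2, the cytosolic thiolase, differed by -0.45 (limma adjusted p = 0.0641), with 1749 to 2161 normalized counts in controls and 1052 to 1878 in KI mice. Acat2 has a close copy, Acat3, at a mean of 9.71 in controls, so its count is uncertain. The isomerase gene Idi1 had the smallest difference of the pathway, -0.07 (SE 0.29, 95% interval -0.72 to 0.57), because KI replicate 4 stood at 709 against 338 to 468 in controls and 239.8 to 351 in the other KI libraries. Pmvk, the kinase between Mvk and Mvd, differed by -0.19 (limma adjusted p = 0.164), with 1289 to 1647 in controls and 1114 to 1363 in KI mice.

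In the squalene steps KI replicates 1 to 3 were below every control and KI replicate 4 was within the control range. Fdps, farnesyl diphosphate synthase, had a log2 difference of -0.80 (limma adjusted p = 0.0761) and ranged from 2267 to 3501 in controls and from 909.7 to 2839 in KI mice. A protein-coding gene model on the same strand, Gm43738, shares 26.7% of its exon bases, so its count is uncertain. Fdft1, squalene synthase, differed by -0.61 (limma adjusted p = 0.0957) with 2445 to 3618 in controls and 1200.2 to 2929 in KI mice, and Ctsb shares 18.3% of its exon bases on the other strand. Sqle, squalene epoxidase, differed by -0.74 (limma adjusted p = 0.0733), with 4518 to 6703 in controls and 2060.3 to 5733 in KI mice. These 3 genes did not pass on all 8 libraries and passed without KI replicate 4.

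Lss, which closes squalene epoxide to lanosterol, had 3769.8, 3559, 4395 and 2807 normalized counts in the controls and 2156, 2133, 1346 and 3432 in the KI libraries. KI replicates 1 to 3 were again the lowest of the 8, and KI replicate 4 lay among the controls. Its difference was -0.74 (SE 0.25, limma adjusted p = 0.0580). The steps from lanosterol onward that remove methyl groups had smaller differences. Cyp51 differed by -0.65 (limma adjusted p = 0.113), Nsdhl by -0.51 (0.151), Msmo1 by -0.38 (0.321), Hsd17b7 by -0.35 (0.319) and Tm7sf2, a sterol reductase, by -0.29 (0.238). None of the 5 passed on all libraries. Their values ran from 6114 to 8904 in controls and 3031 to 8799 in KI mice for Cyp51, and from 584 to 807 and 438 to 768 for Tm7sf2. For Msmo1 they ran from 4295 to 6354 in controls and from 2574 to 7135 in KI mice, for Nsdhl from 1205 to 1780.2 and from 672 to 1608, and for Hsd17b7 from 1327 to 1886 and from 739 to 1857.

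Ebp and Dhcr7, near the end of the pathway, were the other enzymes that fell. Ebp, the sterol isomerase, had 1105, 945, 1113 and 889.6 normalized counts in the controls and 595, 563, 448 and 937 in the KI libraries. It fell by 0.72 (SE 0.20, limma adjusted p = 0.02995), from 1013 ± 113 (SD, n = 4) to 636 ± 210.3 (SD, n = 4). Dhcr7, whose product reduces the last double bond on one branch of the pathway, had 2776, 2529, 2863 and 1872 in the controls and 1262, 1092, 831 and 2364 in the KI libraries. KI replicates 1 to 3 were below every control, and KI replicate 4 above control replicate 4, for both genes. Dhcr7 fell by 0.95 (SE 0.28, limma adjusted p = 0.0391), from 2510.1 ± 448 (SD, n = 4) to 1387 ± 675 (SD, n = 4). Sc5d, the desaturase between them, differed by -0.27 (limma adjusted p = 0.374), with 3819 to 5701 in controls and 2785 to 5821 in KI mice.

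The 3 calls were close to the threshold. Mvd, Ebp and Dhcr7 each passed without KI replicate 4 or without control replicate 4, and none of them passed when any one of the other 6 libraries was left out. With Xist as a covariate in limma 0 of the 18 enzymes passed (5 at an unadjusted p under 0.05, against 4924 of all 15123 genes). KI replicate 4 was the only KI library high in Xist, so within the KI group this covariate cannot be told apart from that library. With the 2 libraries low in Ttr left out 1 passed, Acat2 (limma adjusted p = 0.0499), and Mvd, Ebp and Dhcr7 did not. The quasi-likelihood test of edgeR passed 1, Ebp, and DESeq2 passed 8. Over all genes edgeR passed 3627 and DESeq2 4417, against 3685 in the main fit.

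**Figure D2:**
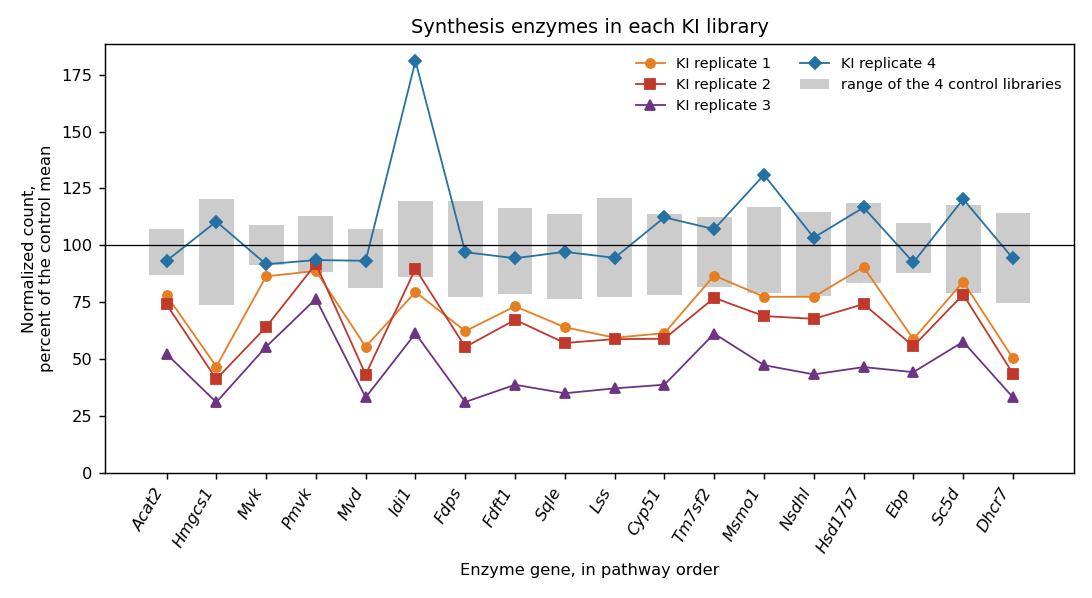
Each KI library as a percent of the control mean for the 18 synthesis enzymes in pathway order, with grey bars for the range of the 4 control libraries and lines joining the points of one library. KI replicates 1 to 3 run below the grey bars for 13 of the enzymes, with medians of 75.2, 65.6 and 43.7 percent, and KI replicate 4 runs within them for 15, with a peak of 181% at Idi1. The share of all genes with such a pattern is not given, so the count of 13 describes the plotted values only.

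Markers of the OL lineage fell too, and of their lists only that of myelin lay within the control range in KI replicate 4. Of 12 markers of myelin and mature OL 7 fell and all 12 were negative, none of them at 0 in every library (11 fell without KI replicate 4), with summed levels of 1143020 to 1742440 in controls and 471282 to 1427250 in KI mice. Mbp, an abundant myelin gene of the list, differed by -0.48 (limma adjusted p = 0.270). All 6 markers of newly formed OL fell, with and without KI replicate 4, with sums of 27139 to 32605 in controls and 5669 to 24137 in KI mice, among them Bcas1 (-1.20, limma adjusted p = 0.0415) and Gpr17 (-3.31, limma adjusted p = 0.0147). Of 8 OPC markers 5 fell and 1 rose, Pdgfra itself, as many as without KI replicate 4. For comparison, 12.4% of all genes tested fell and 12.0% rose, or 18.2% and 16.8% without KI replicate 4. The mean log2 level of the myelin list relative to the controls was -1.26, -1.63 and -2.22 in KI replicates 1 to 3, -0.07 in KI replicate 4 and -0.30 in control replicate 4. For the 18 synthesis enzymes the same values were -0.51, -0.65, -1.17, 0.09 and -0.29. In KI replicate 4 the lists of OPC and newly formed OL stood at -0.40 and -0.42, below the controls, which ran from -0.12 to 0.15 and from -0.09 to 0.16. Gpr17 was at 5485 normalized counts there, against at least 9277 in the controls and at most 812 in the other KI libraries. The part of these cells in the lower enzyme levels was not tested.

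Of 10 astrocyte markers 5 rose (7 without KI replicate 4) and 9 were positive, with sums of 161057 to 207189 in controls and 228834 to 329797 in KI mice. The most abundant, Slc1a2 and Aldoc, rose by 0.89 (limma adjusted p = 0.0183) and 0.70 (limma adjusted p = 0.0193). Neuronal markers were mixed, with 2 of 8 higher and 1 lower, with and without KI replicate 4. Their sums were 151488 to 160965 in controls and 180400 to 193191 in KI mice. These counts stand beside 12.4% of all genes lower and 12.0% higher, or 18.2% and 16.8% without KI replicate 4. The 6 microglial markers had log2 differences of -0.20 to 0.12, with sums of 5834 to 7163 in controls and 6030 to 6890.2 in KI mice, and the most abundant, Csf1r, was at -0.13 (limma adjusted p = 0.356). Their part in the values of the cholesterol genes was not tested.

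**Figure D3:**
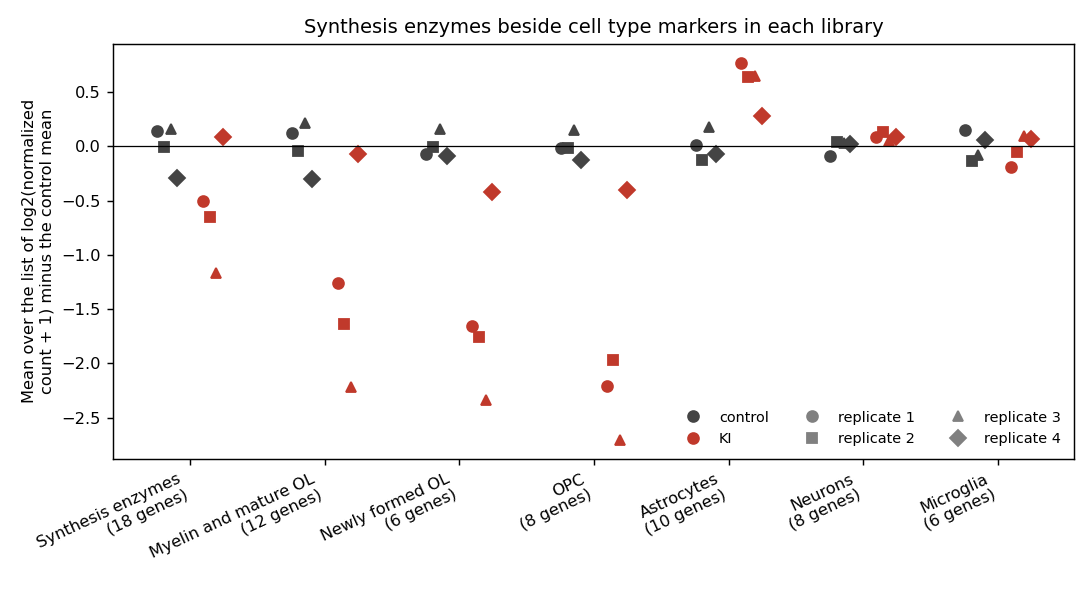
Mean over the genes of each list of log2(normalized count + 1) minus the control mean, for each of the 8 libraries, with grey points for controls, red points for KI mice and symbols for the replicate number. Synthesis enzymes and myelin markers are lowest in KI replicate 3, at -1.17 and -2.22, and KI replicate 4 sits with the controls on both, at 0.09 and -0.07.

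Outside synthesis the changes went both ways. Of the 14 genes 4 fell, Scap, Srebf2, Npc1 and Abcg1, and 2 rose, Insig2 and Soat1, and for these 6 the KI and control libraries did not overlap. Among all genes tested 12.4% fell and 12.0% rose, and the libraries of 12.8% and 12.7% separated downward and upward. The median of the 14 was -0.01. Without KI replicate 4, 5 of the 14 fell, against 18.2% of all genes, and 3 rose, against 16.8%, the additions being Npc2 and Abca1.

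Scap, the SREBP escort, had 2586, 2653, 2562 and 2558 normalized counts in the controls and 2066, 1948, 1832 and 2127 in the KI libraries. All 4 KI libraries were below all 4 controls, KI replicate 4 included. It fell by 0.38 (SE 0.06, limma adjusted p = 0.00912), from 2589.8 ± 44.0 (SD, n = 4) to 1993 ± 131 (SD, n = 4), and it passed with every one of the 8 libraries left out in turn. Gene 5830462I19Rik shares 13.2% of the exon bases of Scap on the other strand.

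Srebf2, which encodes SREBP2, had 6658, 6344, 6516 and 6089 in the controls and 4720.0, 4548, 3618 and 5589 in the KI libraries. The groups did not overlap, and KI replicate 4 was nearest to the controls. It fell by 0.49 (SE 0.12, limma adjusted p = 0.0195), and did not pass without control replicate 2, control replicate 3 or KI replicate 2.

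The INSIG genes differed from each other. Insig2 had 1465, 1441, 1551 and 1471 normalized counts in the controls and 1782, 1848, 1668 and 1723 in the KI libraries. All KI libraries were above all controls, and Insig2 rose by 0.24 (SE 0.06, limma adjusted p = 0.0189), a call lost without control replicate 2, without KI replicate 2 or without both Ttr-low libraries (limma adjusted p = 0.0508). Insig1, itself a target of SREBP, had 2877 to 3682 in controls and 2097 to 3935 in KI mice, a difference of -0.08 (95% interval -0.49 to 0.33, limma adjusted p = 0.778). The ratio of Insig2 to Insig1 counts was 0.421 to 0.511 in the controls, and 0.481, 0.588, 0.795 and 0.438 in the KI libraries, so the groups overlapped.

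**Figure D4:**
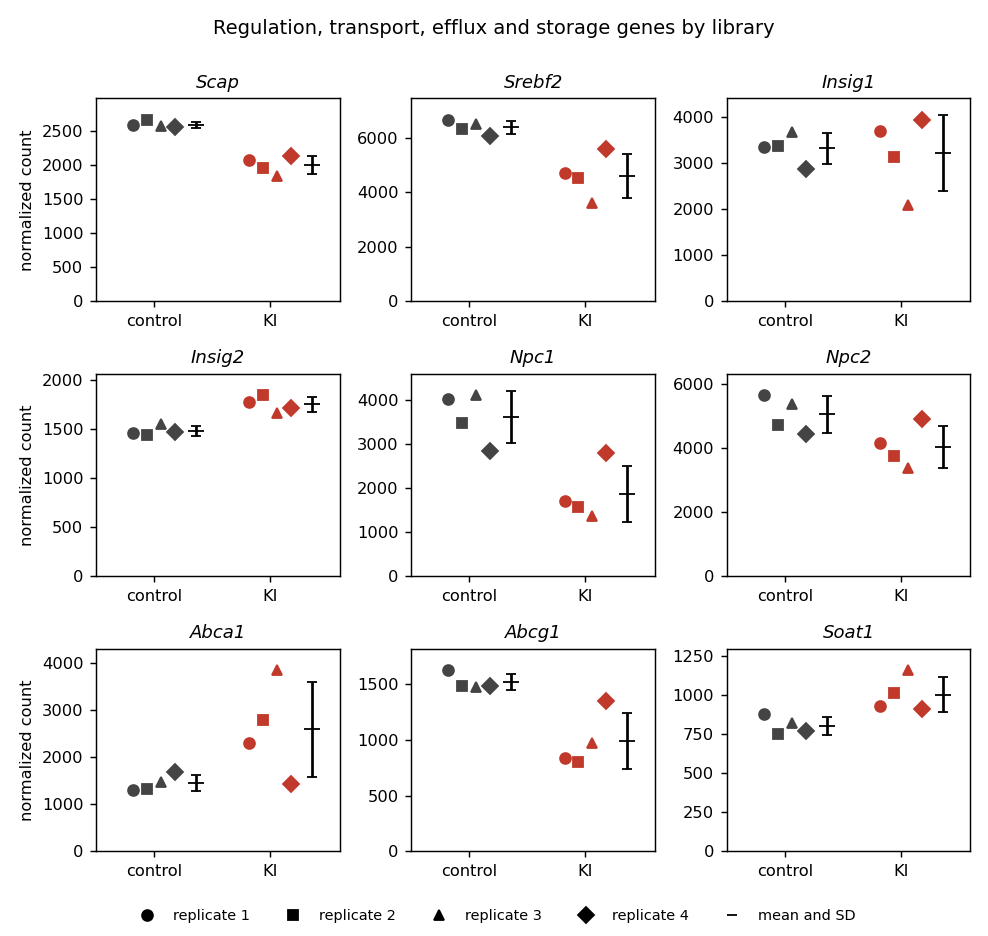
Normalized counts in each library for 9 genes of regulation, transport, efflux and storage, with grey points for controls, red points for KI mice, symbols for the replicate number, and a bar for the mean and SD (n = 4 each). Scap, Srebf2, Npc1 and Abcg1 are lower and Insig2 and Soat1 higher in every KI library than in any control, and Abca1 reaches 3845 in KI replicate 3 but stays at 1427 in KI replicate 4.

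Npc1, which exports cholesterol from the lysosome, had the largest change of the 32 genes. It had 4022, 3466, 4096 and 2846 normalized counts in the controls and 1708, 1579.8, 1365 and 2790.0 in the KI libraries. KI replicate 4 was only just below control replicate 4, and the other 3 KI libraries were far below. Npc1 fell by 1.00 on the log2 scale (SE 0.21, limma adjusted p = 0.0141), from 3608 ± 580.2 (SD, n = 4) to 1861 ± 636 (SD, n = 4), and did not pass without KI replicate 2. Npc2, the soluble partner of NPC1 in the lysosome, had 4439 to 5662 in controls and 3385 to 4906 in KI mice, a difference of -0.33 (SE 0.12, limma adjusted p = 0.0793). Stard4, a cytosolic sterol carrier, had 1447 to 1918 in controls and 1148 to 2323 in KI mice, a difference of 0.10 (95% interval -0.37 to 0.57). In Stard4, KI replicate 3 was the lowest of the 8 libraries, and the other 3 KI libraries were the highest.

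The efflux transporters differed in direction. Abcg1, which passes cholesterol to lipoprotein particles, had 1622, 1485, 1470.0 and 1481 normalized counts in the controls and 832, 797, 972 and 1343 in the KI libraries. The groups did not overlap, and Abcg1 fell by 0.65 (SE 0.15, limma adjusted p = 0.0172), a call lost without control replicate 2, without KI replicate 2 or without both Ttr-low libraries (limma adjusted p = 0.0537). Abca1, which loads cholesterol onto lipid-poor apolipoproteins, had 1301, 1327, 1483 and 1679.6 in the controls and 2299, 2789, 3845 and 1427 in the KI libraries. KI replicates 1 to 3 were above every control, and KI replicate 4 lay inside the control range. The difference of 0.76 (SE 0.25) did not pass (limma adjusted p = 0.0563), and it passed without KI replicate 4 (1.01, limma adjusted p = 0.00220). On reads, edgeR's quasi-likelihood test gave an adjusted p of 0.0391 and DESeq2 one of 0.00449. The ratio of Abca1 to Abcg1 counts was 0.802 to 1.13 in the controls and 2.76, 3.50 and 3.96 in KI replicates 1 to 3, and it was 1.06 in KI replicate 4.

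The LXR genes did not pass. Nr1h2, which encodes LXR beta, had 1016 to 1314 in controls and 1091 to 1227 in KI mice, a difference of 0.05 (95% interval -0.14 to 0.25). Nr1h3, which encodes LXR alpha, had 65.4 to 100.7 in controls and 73.5 to 94.6 in KI mice, a difference of 0.06 (95% interval -0.34 to 0.45). Mylip, an LXR target that marks lipoprotein receptors for degradation, had 275 to 352 and 293 to 428, a difference of 0.15 (95% interval -0.13 to 0.44). For these 3 genes the groups overlapped and the intervals covered 0.

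Soat1, which esterifies cholesterol for storage, had 881, 754, 822 and 769 normalized counts in the controls and 932, 1013, 1159.9 and 914 in the KI libraries. All KI libraries were above all controls, and Soat1 rose by 0.31 (SE 0.09, limma adjusted p = 0.0361). It passed without control replicate 1 or KI replicate 4 and did not pass without any one of the other 6, with Xist as covariate, or without both Ttr-low libraries. Cyp46a1, the neuronal enzyme that turns cholesterol into an oxysterol that can leave the brain, had 1188 to 1672 in controls and 996 to 1339.8 in KI mice, a difference of -0.24 (95% interval -0.53 to 0.04, limma adjusted p = 0.184).

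In the mm10 coordinates of the table, the genes that passed lie at chr8:122433595-122443422 (Mvd), chrX:8185328-8193512 (Ebp), chr7:143823166-143848410 (Dhcr7), chr9:110333355-110384949 (Scap), chr15:82147268-82204960 (Srebf2), chr1:121304352-121328024 (Insig2), chr17:31057693-31117981 (Abcg1) and chr1:156428107-156474328 (Soat1), and Npc1 is on chromosome 18. Insig2 and Soat1, the 2 that rose, are both on chromosome 1.

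Of 43 further genes of sterol handling, 42 were tested, 8 fell and 3 rose, with a median of -0.10, where 12.4% of all genes fell and 12.0% rose. Without KI replicate 4, 13 fell and 6 rose, where 18.2% and 16.8% of all genes did. The genes that rose were Ggps1, which makes geranylgeranyl diphosphate from farnesyl units (0.43, limma adjusted p = 0.0122), Nus1, which acts in dolichol synthesis (0.28, limma adjusted p = 0.0159), and the oxysterol hydroxylase gene Cyp7b1 (0.62, limma adjusted p = 0.0154). Both Ggps1 and Nus1 draw on the isoprenoids that Fdps supplies. Among the 8 that fell, those with the smallest p were the transporters Abcg4 (-0.32, limma adjusted p = 0.0119) and Abca2 (-0.90, limma adjusted p = 0.0166), the oxysterol-binding protein gene Osbp (-0.35, limma adjusted p = 0.0165) and the endosomal sterol carrier gene Stard3 (-0.63, limma adjusted p = 0.0171). The 8 genes of SREBP cleavage and sterol-regulated degradation had differences of -0.26 to 0.53 with a median of -0.03.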

How the data were processed

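RNA from BS of 4 control and 4 KI mice was extracted with RNeasy columns and sequenced from TruSeq mRNA libraries. The authors aligned reads with STAR 2.7 and counted them with HTSeq against mm10, per the submitters' processing notes, and the deposited table holds DESeq2-normalized counts per library, a signal with no unit of its own that the authors obtained by dividing counts by a size factor. Its columns of group means, fold changes and p-values were not used. Of its 24709 lines 628 repeated a gene and were dropped. Every value in each library was a whole read to within 0.01 reads (100%), which gave the reads used for edgeR and DESeq2.

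Genes whose mean reached 10 normalized counts were tested with limma 3.58.1 (R 4.3.3, trend, two-sided, log2(value + 1), threshold 0.05), after a check on simulated data. Fold changes on this scale understate low genes. Alternatives were edgeR 4.0.16, DESeq2 1.42.0, TMM, no filter, pseudocounts of 0.1 and 10, a replicate block, Xist as covariate, both Ttr-low libraries left out, and each library left out. Marker lists were counted without KI replicate 4 as well, a choice made after seeing the data. Libraries come from separate mice as far as the labels say, and no litter or batch was given. Libraries held 21492789 to 27716846 reads, and the least abundant of the 32 cholesterol genes, Nr1h3, had at least 65.4 normalized counts.

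The genes and lists were chosen with earlier results of these data known. Values by library are given for every gene past the threshold, then for those next by p until 12 were covered. Of other sterol genes the 4 smallest p-values in each direction are named, and of each marker list quoted up to 2 genes of highest mean, some of which are not reported here. Motifs were searched in RefSeq windows of 250 bases before to 50 bases after the start. Lists of choroid plexus, blood, endothelial and meningeal genes are in the closing section.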

Additional observations from a re-analysis of the deposited data

Results flagged for a closer look

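In the 64 sets of 4 libraries formed by the 32 genes and both genotypes, 2 held a library far from the other 3, and chance alone gives about 1 in 20 such sets. Mvd in control replicate 4 stood at 1149.34 normalized counts against 1479.8 to 1522 in the other controls, the library that was also the lowest control for all 18 synthesis enzymes. Abcg1 in control replicate 1 stood at 1621.51 against 1470.0 to 1485 in the other controls.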

How the results depend on the processing

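TMM, no filter on low values, and pseudocounts of 0.1 and 10 left the counts of calls among the cholesterol genes at 3 enzymes and 4 other genes lower and 2 higher. The number of synthesis enzymes that fell was 1 by edgeR, 8 by DESeq2, 0 with Xist as covariate (limma, 5 at an unadjusted p under 0.05) and 1 without the libraries low in Ttr, and 0 to 13 with 1 library left out. The other genes that fell numbered 1 to 5 and those that rose 0 to 3 with 1 library left out, those that fell were 3 without the Ttr-low libraries, Abcg1 being lost, and those that rose were 1 with Xist and 0 without the Ttr-low libraries. Enzymes that rose were 0 throughout (limma, edgeR and DESeq2, and 0 at an unadjusted p under 0.05). The further sterol genes called numbered 11, and 2 to 19 with 1 library left out. Over all genes 3685 were called, 3627 by edgeR, 4417 by DESeq2, 2210 with Xist (4924 at an unadjusted p under 0.05), 1836 without the Ttr-low libraries and 888 to 5296 with 1 library left out. The replicate block gave 0 calls in every list and 0 of all genes by limma, with 5087 genes at an unadjusted p under 0.05, 9 of them enzymes, all lower. Correlations of same-numbered libraries, after the mean of each group was removed, were 0.26, -0.12, -0.46 and -0.36. So few values cannot tell whether the numbers pair the mice. By the submitters' own sample numbers no control shared a number with a KI library, so the labels give no ground for the block. Signs of genes with no call turned for Idi1 (0.0424 by edgeR, 0.0442 by DESeq2, 0.234 with Xist, 0.0654 without the Ttr-low libraries, and -0.387 to 0.133 with 1 library left out), Insig1 (0.0480 with Xist, 0.0458 without the Ttr-low libraries, and -0.190 to 0.113 with 1 left out), Nr1h3 (-0.0311 with Xist, -0.0121 without the Ttr-low libraries, and -0.0383 to 0.167 with 1 left out) and Stard4 (-0.00220 to 0.337 with 1 left out). The causes were not tested.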

Other observations

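Of the marker lists not described above, choroid plexus genes had sums of 259 to 102835 normalized counts in controls and 442 to 35809 in KI mice, with log2 differences of -1.66 to -0.69 and both Ttr-low libraries far below the rest. Endothelial genes had sums of 6347 to 7133 in controls and 5711 to 7651 in KI mice, and 2 of 6 fell, as many as without KI replicate 4, where 1 rose. Of 4 genes of meningeal fibroblasts 2 fell, with and without KI replicate 4, with sums of 2238 to 2604 in controls and 1879 to 2210.2 in KI mice. Of 3 blood genes 1 rose, Hbb-bs, a call lost without KI replicate 4. Their sums were 2531 to 9829 in controls and 7338 to 11599 in KI mice. Across all genes tested, 12.4% fell and 12.0% rose, or 18.2% and 16.8% without KI replicate 4.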
